A study of Mus musculus with 18 samples.

Results

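In Alb-R26Met mice, 8 genes were listed at or near 0 in livers without tumors and were clearly present in every advanced liver tumor. They are Tff3, Ly6d, Tspan8, Cpe, Gldn, Elapor1, Shc2 and Erich4. The 8 were selected on the measured values themselves, as symbols whose tumor values lie far above near-zero liver values, out of 28442 genes in the table, of which 15568 were above 0 in some sample. The rise from liver to tumor is therefore a description of how they were picked and was given no test, while their variation among tumors was not used for the choice.

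RNA was measured by bulk RNA-seq in 6 non-tumoral livers and 12 advanced tumors, 18 samples from 17 mice. All mice, livers included, carried the Alb-R26Met genotype, in which a chimeric mouse and human Met transgene at the Rosa26 locus is switched on once Cre, driven by the albumin promoter, removes a stop cassette. Livers came from Alb-R26Met mice that had not developed tumors, so there was no liver without the transgene to compare with. Livers were from mice of 52 to 71 weeks (median 56.5) and tumors from mice of 49 to 72 weeks (median 65). Per the study's methods, all mice were male. Tumors 11 and 12 came from the same mouse. The study calls the deposited table raw counts. Its values were read here as TPM, a relative abundance of transcripts corrected for gene length, rounded to whole numbers, because 882 of 900 unrounded TPM values given for 50 genes equal the table after rounding. Levels of different genes are compared on that reading, and the other genes could not be checked in this way. Here they were also divided by a factor per sample, and "scaled value" means TPM after that step. A value listed at 0 is any TPM that rounds to 0, and the number of reads behind a value is unknown.

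Sample totals ran from 835144 to 884597 in livers and from 845356 to 907513 in tumors. Tumor 2 stood apart, with 8718 genes above 0 against 11508 to 13819 in the other tumors, and with 82.86% of its total in Siglece, a lectin-type receptor gene, against 21.53% to 53.41%. Its factor was 0.195, so its scaled values are about 5 times its deposited ones. Siglece took between 17.86% and 29.55% of a liver's total. Sample names carry a tag, E19 or E20, whose meaning is not stated; 2 livers and 7 tumors carry E19, and 4 livers and 5 tumors carry E20. As reference levels, the scaled value of Met lay between 16.8 and 37.9 (median 23.3) in livers and between 71.7 and 152 (median 127) in tumors, and no tumor overlapped with a liver. Afp, the fetal albumin-like protein that serves as a tumor marker, lay between 0 and 2.20 in livers and between 10.3 and 143 in tumors. Alb, the main plasma protein of hepatocytes, was high throughout, from 20404 to 26443 in livers and from 19959 to 44393 in tumors, and the groups overlapped. Of the 10 hepatocyte markers, none was at 0 in all samples.

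The 8 genes are not known as a pathway. Tff3 encodes trefoil factor 3, a small peptide that goblet cells secrete together with mucus and that helps epithelia to close wounds. Cpe encodes carboxypeptidase E, which trims peptide hormones in secretory granules of endocrine cells and neurons. Ly6d and Tspan8 encode cell surface proteins: the first is held in the membrane by a lipid anchor and marks squamous epithelia and early B lineage cells, and the second is a tetraspanin of gut epithelia that is found on exosomes. Gldn encodes gliomedin, a protein of the olfactomedin family through which Schwann cells gather sodium channels at nodes of Ranvier. Elapor1 encodes a membrane protein of endosomes and lysosomes, and Shc2 a neuronal adaptor that binds activated receptor tyrosine kinases. Erich4 is named only for its glutamate-rich protein.

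On GRCm38.p6, RefSeq places Tff3 (Entrez 21786) at chr17:31125306-31129611, minus strand, Ly6d (17068) at chr15:74762056-74763567, minus strand, and Cpe (12876) at chr8:64592542-64693109, minus strand. Tspan8 (216350) is at chr10:115816817-115849893, plus strand, and Shc2 (216148) at chr10:79617934-79637918, minus strand. Gldn (235379) is at chr9:54286486-54341777, plus strand, Elapor1 (229722) at chr3:108455679-108536745, minus strand, and Erich4 (632778) at chr7:25614620-25615853, minus strand. Tspan8 and Shc2 share chromosome 10 and lie far apart on it. In GENCODE vM21, genes on the opposite strand overlap Tspan8 (4930422I22Rik), Gldn (Gldnos), Shc2 (Gm47163) and Elapor1 (Gm23336 and 1700013F07Rik), and Gm37859 lies on the strand of Elapor1. Whether the quantification used strand is not given in the sources used here, so reads of these overlapping genes may be shared.

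RefSeq start windows on GRCm38.p6, from 250 bases before a start to 50 bases after it, were found for 4 of the 8 genes. They are shown because these were the windows that matched, so that genes that are all near 0 in livers can be compared in sequence at a start. The windows of Gldn and Shc2 surround the start of the RefSeq gene, and those of Tspan8 and Elapor1 surround a start inside it. Each is written 5′ to 3′ on the strand of its gene, and capitals mark matches, on either strand, to the 8 motifs described next.
Tspan8, chr10:115817034-115817333, plus strand: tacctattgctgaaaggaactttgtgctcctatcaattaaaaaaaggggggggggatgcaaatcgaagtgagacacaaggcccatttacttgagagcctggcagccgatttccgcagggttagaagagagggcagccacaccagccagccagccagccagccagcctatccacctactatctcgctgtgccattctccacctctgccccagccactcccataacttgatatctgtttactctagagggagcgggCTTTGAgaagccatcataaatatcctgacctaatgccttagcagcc
Elapor1, chr3:108536492-108536791, minus strand: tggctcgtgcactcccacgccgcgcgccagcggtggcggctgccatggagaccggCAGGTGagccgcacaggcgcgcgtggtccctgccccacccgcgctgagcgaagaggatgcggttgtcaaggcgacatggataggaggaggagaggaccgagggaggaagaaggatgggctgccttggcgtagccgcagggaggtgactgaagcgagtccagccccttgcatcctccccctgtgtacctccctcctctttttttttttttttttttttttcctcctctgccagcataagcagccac
Gldn, chr9:54286236-54286535, plus strand: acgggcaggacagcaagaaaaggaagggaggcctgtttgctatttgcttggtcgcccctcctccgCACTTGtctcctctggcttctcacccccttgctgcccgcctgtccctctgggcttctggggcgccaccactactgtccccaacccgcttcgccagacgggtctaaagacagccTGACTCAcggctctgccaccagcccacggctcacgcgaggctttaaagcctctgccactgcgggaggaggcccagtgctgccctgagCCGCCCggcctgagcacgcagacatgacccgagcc
Shc2, chr10:79637869-79638168, minus strand: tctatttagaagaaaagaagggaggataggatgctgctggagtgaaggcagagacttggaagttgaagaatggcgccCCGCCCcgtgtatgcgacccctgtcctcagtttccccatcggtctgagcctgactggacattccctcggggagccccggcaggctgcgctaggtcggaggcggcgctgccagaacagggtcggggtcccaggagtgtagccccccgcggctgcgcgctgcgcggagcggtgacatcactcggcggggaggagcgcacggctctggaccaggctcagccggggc

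The motifs searched were those of common promoter elements and of factors active in liver or epithelia. The core promoter letters were TATAAA for the box bound by the general factor TBP, CCAAT for the site of nuclear factor Y, and GGGCGG for the site of Sp1. For factors that respond to signals the letters were TGANTCA for AP-1, which growth signals switch on, CTTTGA for the Tcf/Lef proteins of Wnt signaling, and CCGGAA for the ETS family. For factors of cell identity they were CANNTG, called the E-box, and GTTAAT, which is a half-site of the hepatocyte factor HNF1. No match overlapped with a match to another motif in these windows. The Tspan8 window held the Tcf/Lef core, which 16% of the 32851 start windows in the table hold, and the Elapor1 window held an E-box, which 72.3% hold. Gldn held an AP-1 site (7.81% of windows), an E-box and an Sp1 site (35.7%), and Shc2 held an Sp1 site. The letters of the TBP box (13.6%), the nuclear factor Y site (37.4%), the HNF1 half-site (7.1%) and the ETS core (14.9%) were in none of the 4 windows. No motif was shared by all 4, nor by Tspan8 and Elapor1. The windows also differed in base composition: Tspan8 held 5 CpG and 51.7% G and C, and Gldn, Elapor1 and Shc2 held 17, 21 and 24 CpG with 62.3% to 65.7% G and C, against a median of 52.7% over all windows. A match is a description of letters and shows no binding.

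Among the secreted and granule proteins, Tff3 had the highest level of the 8 genes. Its scaled value was 5.13, 2.82, 0.945, 1.0, 1.12 and 0 in livers 1 to 6 (mean 1.83 ± 1.85, SD, n = 6). In tumors it was 34.8 at the lowest, 258 at the median and 859 at the highest (mean 422 ± 322, SD, n = 12). The lowest tumor, tumor 10, was still above the highest liver, liver 1, and tumors 3, 4, 7 and 12 formed a high set between 805 and 859, with tumor 11 next at 471. On the scale of log2(scaled value + 1), tumors were higher by 6.95.

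Cpe was at 0 in 4 livers, at 0.732 in liver 1 and at 1.12 in liver 5 (mean 0.308 ± 0.493, SD, n = 6). Tumors lay between 27.6 and 246, with a median of 98.3 (mean 112 ± 66.8, SD, n = 12). Tumors 10 and 11, at 232 and 246, were the highest and tumor 1 the lowest, and no tumor overlapped with a liver. The log2 difference was 6.29.

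Of the surface proteins, Ly6d was at 0 in 4 livers, at 2.20 in liver 1 and at 0.939 in liver 2 (mean 0.523 ± 0.902, SD, n = 6). In tumors it ran from 47.4 to 465 around a median of 113 (mean 163 ± 136, SD, n = 12). Tumors 11 and 10 (465 and 403) again were the highest, followed by tumor 5 at 243, and the other 9 tumors lay between 47.4 and 126. Its log2 difference was 6.56. Tspan8 was at 0 in 5 livers and at 0.732 in liver 1 (mean 0.122 ± 0.299, SD, n = 6). Tumors lay between 42.1 (tumor 1) and 201.4 (tumor 11), with a median of 91.4 (mean 98.0 ± 46.2, SD, n = 12), and were far from the only liver above 0. Its log2 difference was 6.36.

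The other 4 genes were present at lower levels. Gldn, the node of Ranvier protein, was at 0 in 5 livers and at 0.732 in liver 1, and lay between 9.03 and 32.8 in tumors (median 14.5, mean 17.1 ± 7.97, SD, n = 12). Its highest tumors were 6 and 3, and its log2 difference was 3.93. Elapor1, the endosomal protein, was at 0 in all 6 livers and at 3.48 in tumor 10, 36.7 in tumor 9 and 18.4 at the tumor median (mean 19.03 ± 8.23, SD, n = 12). Tumor 10 was set off from the next lowest tumor, at 11.2. Shc2, the adaptor, was at 0 in all livers and had the narrowest range as a ratio, 2.53-fold, from 6.32 in tumor 8 to 15.97 in tumor 1 (median 11.9, mean 11.8 ± 2.61, SD, n = 12). Erich4 was at 0 in all livers and between 3.51 (tumor 8) and 10.5 (tumor 3) in tumors, with a median of 8.01 (mean 7.87 ± 2.30, SD, n = 12). For Elapor1, Shc2 and Erich4 no fold is given, since the livers are listed at 0. In bulk tissue, more cells that make an RNA and more RNA per cell cannot be told apart.

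**Figure D1:**
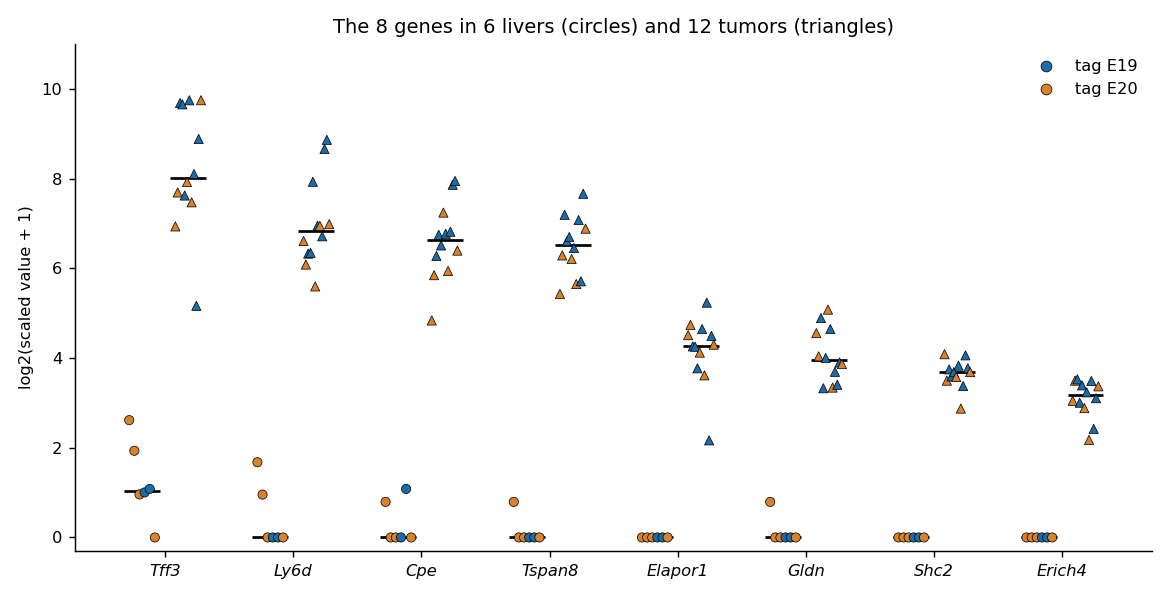
Scaled values of the 8 genes on a log2 axis with a pseudocount of 1 (vertical), with livers as circles, tumors as triangles, the tag as color and group medians as bars. For each gene the 12 tumors lie above the 6 livers, and the tumor spread is wide for Tff3 (34.8 to 859) and narrow for Shc2 (6.32 to 15.97).

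All 8 genes had every tumor above every liver, which the choice of genes implies. Over the 11708 genes tested this held for 255, or 2.18%, and limma, with an adjusted p under 0.05 as the limit, called 19% of them, 9.77% as higher in tumors. With a liver ceiling at the highest liver value of the 8 genes, 5.13, every tumor exceeded every liver in 172 genes. Ordered by tumor median among those 172, Tff3 and Ly6d held ranks 1 and 2, Cpe 4, Tspan8 6, Elapor1 19, Gldn 33, Shc2 44 and Erich4 64. The choice of genes favors high ranks in this order, and the ceiling is the value of Tff3 in liver 1. H19, a fetal imprinted RNA, was at rank 3 with a tumor median of 103, Scd2 was at rank 5 with 92.6, and Afp was at rank 9 with 36.5.

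Liver 1 carried most of the residual liver signal. In deposited TPM it was listed at 7 for Tff3, 3 for Ly6d and 1 for Tspan8, Cpe and Gldn, a sum of 13 over the 8 genes, against 4 in liver 2 and 0 to 2 in the other 4 livers. Liver 1 also differed in the male-biased urinary protein gene Mup11, with a scaled value of 0.732 against 464 to 805 in the other livers, and had the highest liver value of Afp, at 2.20. The part of this sample's state in the values of the 8 genes was not tested. Without it the highest liver values were 2.82 for Tff3, 0.939 for Ly6d, 1.12 for Cpe and 0 for the other 5 genes.

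Tumor 2 set the low end of the unscaled data. In deposited TPM, 7 of the 8 genes were at their lowest tumor value there, Tff3 at 40 (equal to tumor 10), Ly6d at 13, Tspan8 at 15, Cpe at 11, Gldn at 3, and Shc2 and Erich4 at 2. After scaling, tumor 2 was the lowest tumor for none of them. The order of scaled levels by tumor median was Tff3, Ly6d, Cpe, Tspan8, Elapor1, Gldn, Shc2 and Erich4. Tff3 exceeded Ly6d in 10 of 12 tumors and Ly6d exceeded Cpe in 9. Cpe exceeded Tspan8 in 6 of 12 tumors and Elapor1 exceeded Gldn in 6, so these neighbours were not ordered beyond the spread between tumors. Tspan8 was above Elapor1 in all 12 tumors, and Gldn above Shc2 and Shc2 above Erich4 in 10 each.

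Tumors differed from each other far more in some of these genes than in others. Tff3 had a standard deviation of 1.40 on the log2 scale over the 12 tumors, and only 1.14% of the 10925 genes tested among tumors had a larger one. Ly6d (1.0), Cpe (0.86) and Elapor1 (0.76) were also above the median gene, at 0.48, with 4.83%, 8.99% and 14% of genes more variable. Tspan8 (0.67) and Gldn (0.60) were closer to it, with 21.6% and 29% of genes more variable. Erich4 (0.43) and Shc2 (0.32) lay under the median, and 58.7% and 80.1% of genes varied more. Without tumor 2 the median gene had a standard deviation of 0.34, to which Shc2 (0.33) was nearly equal and above which Erich4 (0.43) lay. The highest tumor exceeded the lowest 24.7-fold in Tff3, 10.5-fold in Elapor1, 9.81-fold in Ly6d and 2.53-fold in Shc2. Deposited values move in steps of 1 TPM, so rounding is a larger share of the spread in Shc2 and Erich4 than in Tff3. It is coarsest in tumor 2, where Shc2 and Erich4 were each at a deposited TPM of 2 and a scaled value of 10.3.

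**Figure D2:**
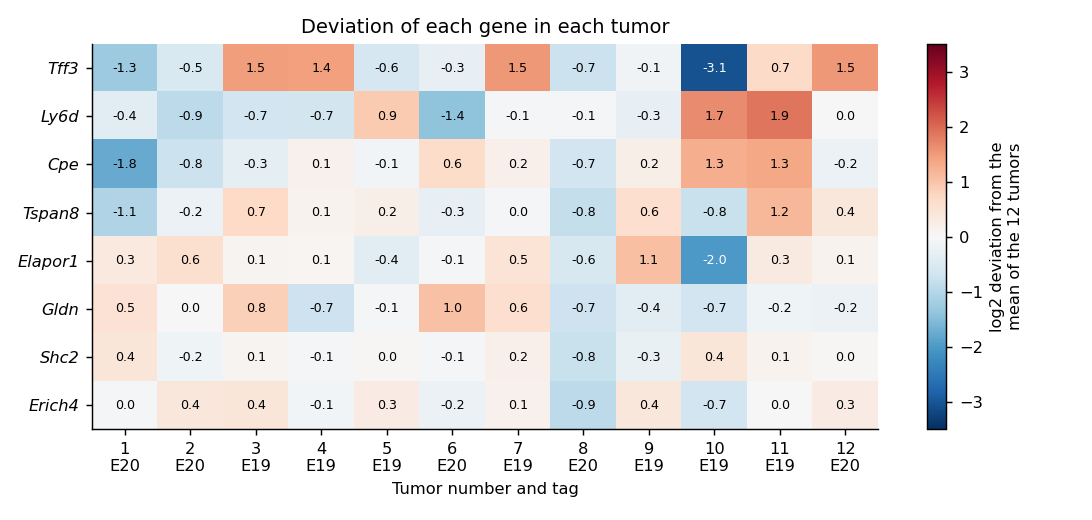
Log2 deviation of each gene (rows) in each tumor (columns, with the tag) from its mean over the 12 tumors, as color and number. Tumor 10 is low in Tff3 and Elapor1 and high in Ly6d and Cpe, tumor 8 is below the mean in all 8 genes, and tumor 11 is high in Ly6d, Cpe and Tspan8.

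Tumor 10 had the most distinct combination. It had the lowest Tff3 (34.8) and Elapor1 (3.48) of all tumors and low Erich4 (4.35) and Tspan8 (51.4), together with high Ly6d (403) and Cpe (232). Averaged over the 8 genes, it differed from the other tumors by 1.46 on the log2 scale, against 0.69 to 0.97 for each other tumor. Of the 7 intestinal epithelium markers, tumor 10 had the highest tumor values of Vil1 (24.4, against at most 3.01 in other tumors) and Cdh17 (26.1) but the lowest of Fabp2 (9.58, against up to 96.5). Lgals4 was at 0.871 there, Cdx1 and Cdx2 were at 0 in all samples, and the sum of the list was highest in tumor 11. The part of these values in its Tff3 and Elapor1 was not tested. Tumor 8 was the lowest tumor for Shc2 and Erich4 and below the mean of tumors in every gene of the 8. Tumors 11 and 12, from the same mouse, differed 3.70-fold in Ly6d, 2.96-fold in Cpe, 1.82-fold in Tff3 and 1.72-fold in Tspan8, and by at most 1.23-fold in the other 4. Their mean log2 difference over the 8 genes was 0.71, and 27 of the 66 pairs of tumors were closer to each other.

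Whether the 8 genes rise and fall together among tumors was examined in the 28 pairs. Tff3, Tspan8, Elapor1 and Erich4 were positively correlated with each other, with Pearson r from 0.46 to 0.70 in their 6 pairs, and Ly6d was positively correlated with Cpe (0.54). Without tumor 10, r was 0.13 for Tff3 with Elapor1, 0.32 for Tff3 with Erich4 and 0.30 for Tspan8 with Elapor1. It was 0.56 to 0.61 there for the other pairs of those 4 genes. Between these sets of genes, 6 of 8 pairs were negative, from -0.49 to 0.44. That direction rested on tumor 10. Without it, these pairs lay between -0.11 (Ly6d with Elapor1) and 0.73 (Tspan8 with Cpe). Only Ly6d with Elapor1 stayed negative among them, and 23 of all 28 pairs were positive. The sets were put together after the values were seen and have no test. No pair was called: in limma regressions of all 10924 other genes on each gene, 0 of 28 pairs passed an adjusted p of 0.05 in both directions, the lowest being 0.545, and 5 had an unadjusted p under 0.05 in both. The median r over the 28 pairs was 0.21, and 17 were positive.

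Elapor1 and Erich4 were the most correlated pair (r = 0.70, permutation p = 0.0148, Spearman's rho = 0.62, permutation p = 0.0372, n = 12). Tumors 10 and 8 were low in both genes. Without tumors 9 and 10, the farthest from the median of Elapor1, r was 0.56, and it was 0.80 within E19 (n = 7) and 0.92 within E20 (n = 5). Tff3 and Tspan8 followed (r = 0.66, permutation p = 0.0184, rho = 0.69, permutation p = 0.0170). Their r was 0.60 without tumors 10 and 12, the farthest from the median of Tff3, 0.60 within E19 and 0.92 within E20, and lay between 0.61 and 0.71 when any tumor was left out. Tspan8 and Erich4 had r = 0.64 (permutation p = 0.0261, rho = 0.64, permutation p = 0.0305), 0.87 without tumors 1 and 11, and 0.68 and 0.60 within E19 and E20.

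Other correlations rested on few tumors. Tff3 and Elapor1 had r = 0.62 (permutation p = 0.0348, n = 12) but rho = 0.39 (permutation p = 0.210), and r fell to 0.13 without tumor 10. Within E19 it was 0.78, and within E20, which does not hold tumor 10, it was 0.0017. Ly6d and Cpe had r = 0.54 (permutation p = 0.0727, rho = 0.43, permutation p = 0.169), and r was 0.35 without tumor 11 and -0.11 without tumors 10 and 11, the farthest from the median of Ly6d. Within E19 it was 0.83 and within E20 it was -0.48, so the direction turned between tags, with only 5 tumors in the latter. Ly6d and Elapor1 had the most negative r (-0.49, permutation p = 0.111, rho = -0.22, permutation p = 0.483), which was -0.11 without tumor 10, -0.28 without tumors 10 and 11, -0.54 within E19 and -0.31 within E20. The 7 pairs with Shc2 lay between -0.18 and 0.35. These 5 positive pairs and this negative pair are among 28 computed, and the p values beside r and rho are not adjusted.

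**Figure D3:**
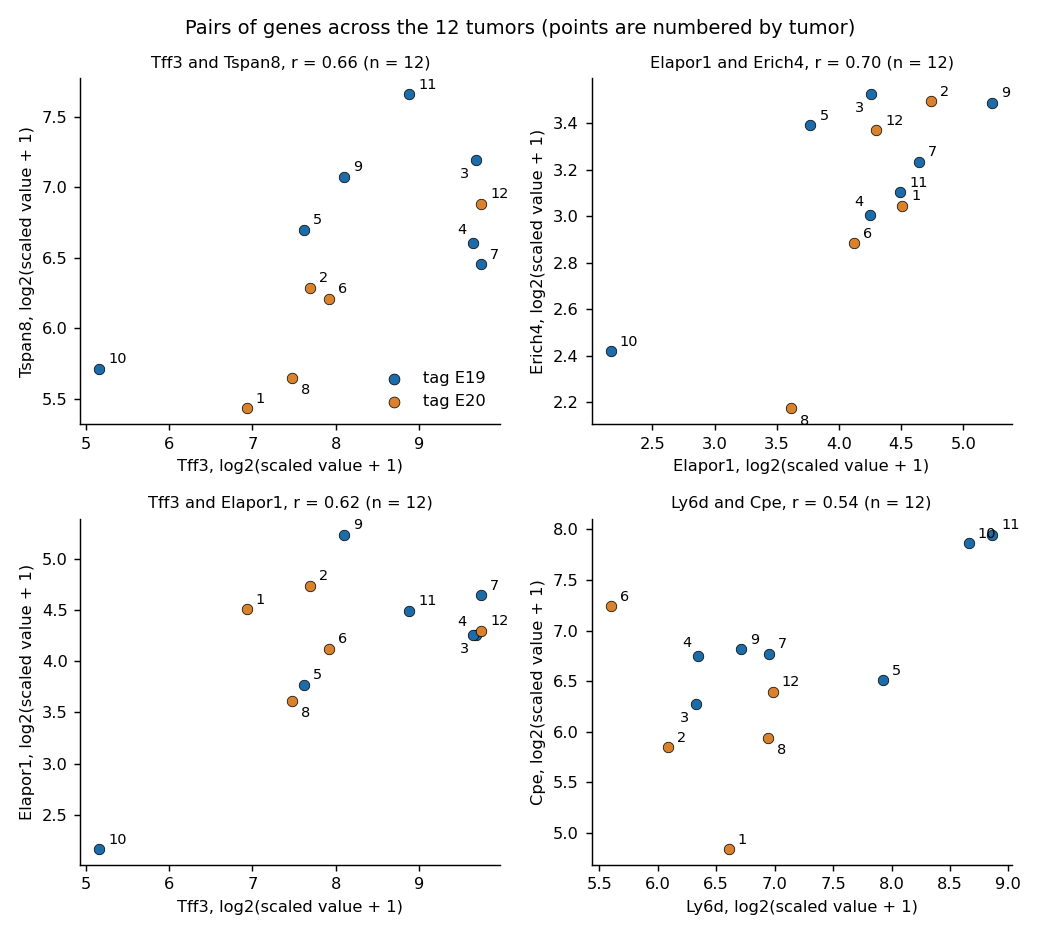
Levels of pairs of genes in the 12 tumors as log2(scaled value + 1) on both axes, numbered by tumor and colored by tag. Tumor 10 sits alone at the low end of Tff3 and Elapor1 (r = 0.62, and 0.13 without it), and tumors 10 and 11 sit together at the high end of Ly6d and Cpe.

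The picture depends on scaling between samples, and there on tumor 2. Without scaling, all 28 pairs were positive, the median r was 0.61 and 7 pairs were called by limma, among them Tspan8 with Erich4 (r = 0.82) and Ly6d with Cpe (0.75). Leaving out tumor 2 as well brought the median r to 0.05, with 15 pairs positive and 0 called by limma (5 at an unadjusted p under 0.05), an alternative chosen after seeing the data. The pairs of Tff3 with Tspan8 (0.55), Elapor1 with Erich4 (0.64) and Tspan8 with Erich4 (0.56) stayed positive there.

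**Figure D4:**
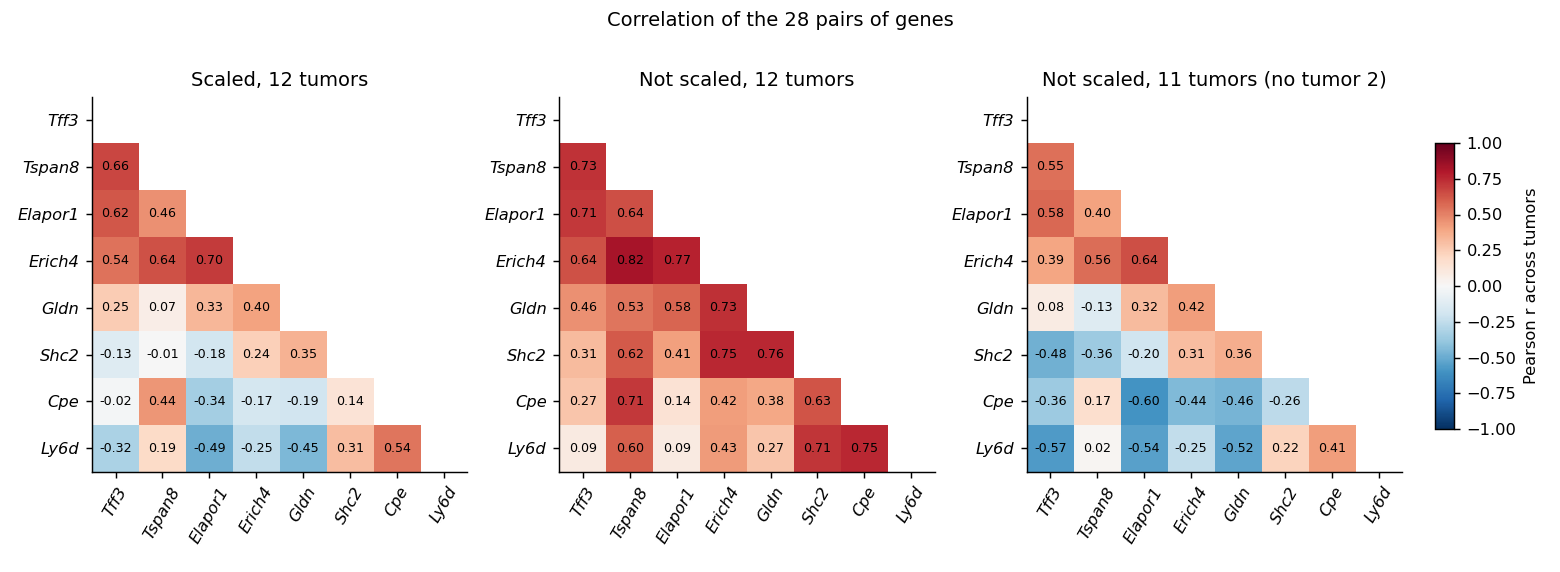
Pearson r across tumors for the 28 pairs, with scaled values (left), without scaling (middle) and without scaling or tumor 2 (right). All squares are positive in the middle (median 0.61), while on the left 17 and on the right 15 of 28 are.

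For each of the 8 genes, the 3 genes with the highest r were taken from 6859 candidates with a median of at least 5 in tumors. For Tff3 they were Mup11 (r = 0.90), Tdo2 (0.89), the enzyme that opens the tryptophan ring, and Mup19 (0.89). For Elapor1 they were Tcn2 (0.96), which carries vitamin B12, Rdh16f2 (0.90) and Rarres1 (0.89). Ero1a (0.90), an oxidase for protein folding in the endoplasmic reticulum, Tmem208 (0.88) and Chic2 (0.87) were nearest to Cpe. Nearest to Ly6d were Stx12, Atp6v1c1 and Ywhag (0.84 to 0.86), and to Tspan8 Stx8, Saa2 and Exosc3 (0.84 to 0.86). Gldn was nearest to Blnk, Itih2 and Dhcr7 (0.83 to 0.84), Shc2 to H2-Q1, Dcun1d1 and Colec12 (0.80 to 0.87), and Erich4 to Lrpap1, Fgg and Cfi (0.81 to 0.88). These are the highest among 6859 correlations per gene over 12 tumors that share scaling, tags and a mouse.

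In the limma regressions, 2 genes (0.0183%) were called for Tff3 and 3 (0.0275%) for Elapor1, and 0 (0%) for each of Ly6d, Tspan8, Cpe, Gldn, Shc2 and Erich4. The genes with an unadjusted p under 0.05 numbered 587 for Tff3, 755 for Elapor1, 985 for Ly6d, 451 for Tspan8, 1222 for Cpe, 360 for Gldn, 199 for Shc2 and 380 for Erich4. The calls for Tff3 were Mup11 (adjusted p = 0.0237) and Mup19 (adjusted p = 0.0251), both rising with it. Mup11 ran from 1.74 in tumor 10 to 793 in tumor 12, and in liver 1 it was 0.732 although Tff3 was highest there among livers. The Mup genes are near-identical copies, so reads could be split between them, and neither was called when tumors 11 and 12 were averaged. Mup11 stayed called in 8 of 12 fits that left out a tumor and Mup19 in 5. For Elapor1 the calls were Rarres1, which rose with it (adjusted p = 0.0329), and Lhpp and Nxpe2, which fell as it rose (adjusted p = 0.0319 for each, r = -0.89 and -0.90). All 5 calls were lost without tumor 10, the tumor with the lowest Tff3 and Elapor1. Rarres1 was at 2.61 there against 13.4 to 64.2 in other tumors, Lhpp at 158 against 0 to 10.5, and Nxpe2 at 45.3 against 0 to 4.92. Without tumor 10, r was 0.81 for Mup11, 0.78 for Mup19, 0.62 for Rarres1, -0.62 for Lhpp and -0.63 for Nxpe2, and none passed in limma (adjusted p = 0.888 for both Mup genes with Tff3 and 1.0 for the 3 genes with Elapor1). Spearman's rho over the 12 tumors was 0.69 for Rarres1, -0.73 for Lhpp and -0.56 for Nxpe2. With each tumor left out in turn, the calls for Elapor1 held in 6 of 12 fits for Rarres1, 9 for Lhpp and 8 for Nxpe2.

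Between tags, none of the 8 genes was called by limma among the 12 tumors, where 11.7% of 10925 genes were. Cpe had the only unadjusted p under 0.05 (0.0311). It lay between 76.4 and 246 (median 108) in E19 tumors and between 27.6 and 150 (median 60.4) in E20 tumors, which overlapped, and was lower in E20 by 0.94 on the log2 scale (SE 0.39, limma adjusted p = 0.121). Without tumor 6 the difference was -1.23 and passed (limma adjusted p = 0.0469). Ly6d (-0.95, SE 0.47) and Tspan8 (-0.68, SE 0.32) were also lower in E20 without passing (limma adjusted p = 0.182 and 0.168), and the other 5 differed by -0.45 to 0.20.

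The closest relatives of the 8 genes behaved differently from gene to gene. Of 90 relatives by family or name, 88 were in the table, 34 were at 0 in every sample and 42 could be tested, of which limma called 14 higher and 3 lower in tumors, where 9.77% of all genes tested were called higher. Of the 27 relatives and markers called, none changed direction without scaling, which moved the median of all genes to -0.18, and 16 passed there. Among the 11 that did not were Shc1, Cpd, Gpihbp1, Tspan9, Ly6e, Cd59a and Cd59b. The filter on low values matters here. Of the 21 called higher, 9 had a liver median under 1 and entered the test through their tumor values. They were Ly6c1, Lynx1, Plaur, Tspan2, Tspan15, Prom1, Cldn7, Cdh17 and Blnk. Aebp1, with a liver median of 1.06 and a lowest liver of 0.79, also passed the filter only through its tumor values. Such entry favors a difference without fixing a call, since Krt23, at 0 in all livers, was not called (limma adjusted p = 0.0676). Those called higher with a liver median of at least 1 were 9 relatives, Aebp1 among them, and 3 markers. Tff1 and Tff2, the other trefoil factors, were listed at 0 in all 18 samples. So were Shc3 and Shc4, while Shc1, the widely expressed Shc adaptor, was higher in tumors (log2 0.63, SE 0.17, adjusted p = 0.0106). Elapor2 was at 0 in all livers and at most 2.61 in a tumor, and was not tested. Erich1 was not called (0.10, SE 0.20, adjusted p = 0.789).

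Among the tetraspanins, 6 of 22 tested rose and none fell, with a median log2 difference of 0.15 against -0.06 over all genes tested. Cd63, a marker of lysosomes and exosomes, rose by 3.57 (SE 0.29, adjusted p = 2.2e-08), from 2.83 to 19.8 in livers to 45.7 to 142 in tumors, with no overlap. Cd9, its relative on exosomes, rose by 2.33 (SE 0.20), Tspan15 by 1.35 and Tspan9 by 0.80. Tspan2 was listed at 0 in all livers and at 0 to 3.80 in tumors. Leaving out Tspan2 and Tspan15, which entered the test through their tumor values, 4 rose. Tspan31 (0.16, adjusted p = 0.689) and Tspan4 (0.08, adjusted p = 0.870) were not called. Of the 8 tested Ly6/uPAR genes, 5 rose and 2 fell, and 2 of the 5, Ly6e and Gpihbp1, had a liver median of at least 1. Ly6e rose by 1.32 and Gpihbp1, which holds lipoprotein lipase on capillaries, by 0.83. Ly6c1 (2.68), the urokinase receptor Plaur (1.17) and Lynx1 (1.13) had a liver median under 1 and entered the test through their tumor values. Cd59a and Cd59b, shields against complement, fell (log2 -0.62 and -0.61, adjusted p = 0.0495 and 0.0481), and missed the limit with scaling by the median of ratios (0.0574 and 0.0581). Ly6a was not called (0.74, adjusted p = 0.158).

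Of the 4 carboxypeptidases tested beside Cpe, Aebp1 (2.50, SE 0.36, adjusted p = 4.2e-05) and Cpd (0.69, SE 0.19, adjusted p = 0.0124) rose, and Cpn1 (0.44, adjusted p = 0.0615) and Cpm (0.11, adjusted p = 0.828) were not called. Aebp1 lay between 0.79 and 2.20 in livers and entered the test through its tumor values. Among the 6 olfactomedin genes beside Gldn, only Adgrl1 was called, and it fell by 1.09 (SE 0.26, adjusted p = 0.00468). Adgrl2 (0.24, adjusted p = 0.305) and Olfml1 (-0.14, adjusted p = 0.755) were not called. All adjusted p values here are from limma over 11708 genes.

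**Figure D5:**
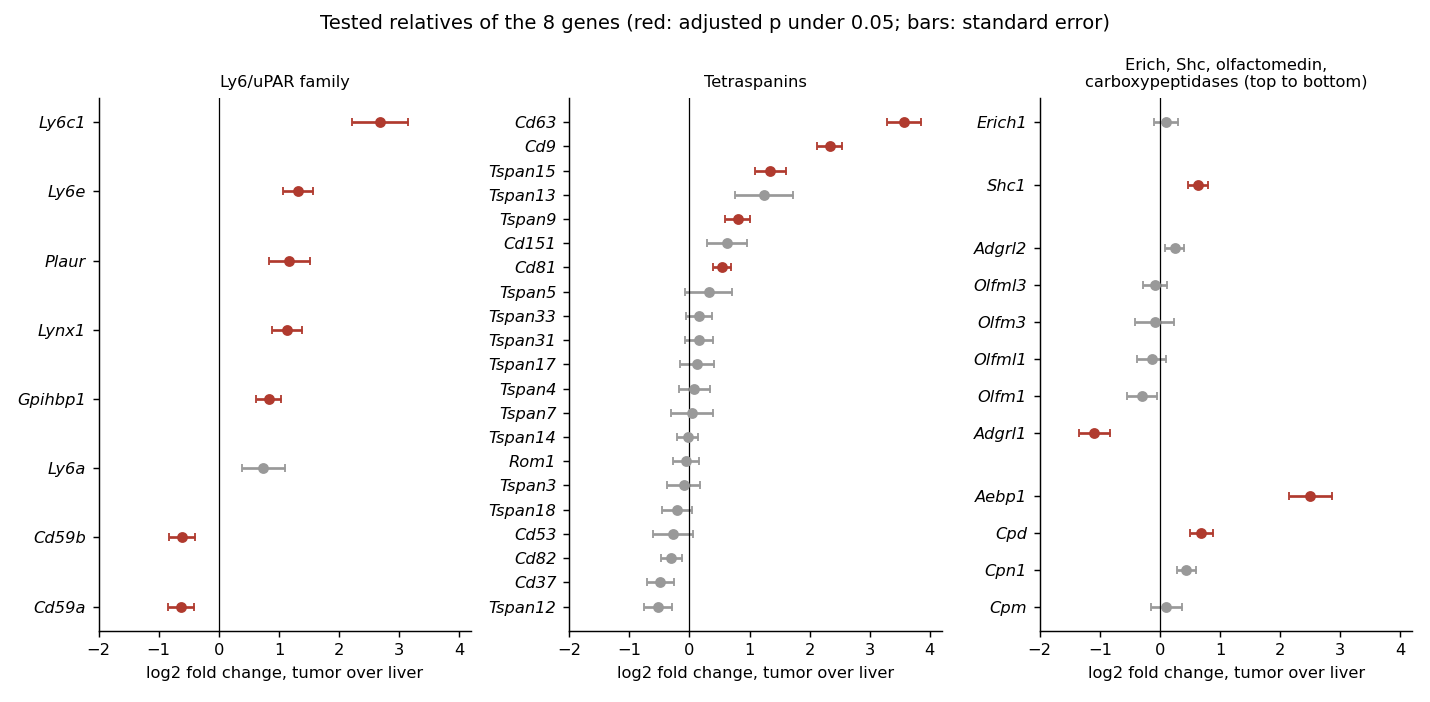
Log2 fold change of tumors over livers (horizontal) for 41 of the 42 tested relatives (Tspan2, at 0 in all livers, is left out), with standard errors as bars and adjusted p under 0.05 in red. Cd63 (3.57), Ly6c1 (2.68), Aebp1 (2.50) and Cd9 (2.33) are farthest to the right, and most tetraspanins lie near 0. Of those farthest to the right, Ly6c1 and Aebp1 entered the test through their tumor values.

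Most markers of mucus-secreting, neuroendocrine and squamous cells, in which Tff3, Cpe and Ly6d are usually found, were at 0 in every sample. The Schwann cell, B lymphoid and intestinal lists had 5 of 10, 4 of 10 and 2 of 7 markers at 0 in every sample. Of the 14 markers of mucus-secreting epithelium, where Tff3 is usual, 11 were at 0 in every sample, Muc2, Muc5ac, Agr2 and Spdef among them, and the summed level was 0 to 1.12 in livers and 0 to 1.74 in tumors. Of 13 neuroendocrine and secretory markers, where Cpe is usual, 10 were at 0 throughout, Chga and Scg2 among them. Their sum ran from 9.48 to 12.2 in livers and 4.78 to 21.0 in tumors, and Pam (-0.41, adjusted p = 0.197), which amidates peptide hormones, was not called. Squamous and urothelial markers, which Ly6d often accompanies, were at 0 throughout for 8 of 12, including Krt14 and Trp63. Their sum was 28.6 to 62.6 in livers and 20.6 to 69.2 in tumors, nearly all of it Perp, which was not called (-0.05, adjusted p = 0.912). Of the Schwann cell and node markers beside Gldn, 5 of 10 were at 0 throughout and the sum was at most 3.78 in livers and 5.47 in tumors. Pmp22 (-0.43, adjusted p = 0.150) and Mbp (0.26, adjusted p = 0.633) were not called.

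B lymphoid markers showed a split. Ms4a1, Pax5 and Rag1 were at 0 in all samples and Cd79a was at most 0.939. The signaling adaptor Blnk was at most 1.46 in livers and 2.01 to 10.8 in tumors. Blnk had a liver median under 1 and entered the test through its tumor values. Ighm was not called (-0.02, adjusted p = 0.986), and the summed list was 2.83 to 50.7 in livers and 5.11 to 32.2 in tumors. Of the 14 adaptors of receptor tyrosine kinases listed beside Shc2, limma called 0, and their sum was 170 to 213 in livers and 156 to 205 in tumors. Crk (-0.26, adjusted p = 0.226) and Grb7 (-0.36, adjusted p = 0.176) had the highest means.

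Among the 12 biliary and progenitor markers, 6 could be tested and 4 of these rose, where 9.77% of all genes tested were called higher. Their sum was 14.2 to 24.9 in livers and 87.9 to 942 in tumors, and most of it was Spp1, without which it was 8.69 to 15.96 in livers and 17.4 to 35.6 in tumors. Those that rose include the secreted phosphoprotein Spp1 by 4.45 (SE 0.44, adjusted p = 3.8e-07), Prom1 by 2.63 (SE 0.30) and the junction protein Cldn7, which was listed at 0 in all livers and at 0 to 6.02 in tumors. Prom1 and Cldn7 entered the test through their tumor values. Sox9 (0.45, adjusted p = 0.315) and Krt23 (0 in all livers, 0 to 12.3 in tumors, adjusted p = 0.0676) were not called. Krt7 and Krt19, which define bile duct cells, were at most 1.82 and 1.0 in any sample, and Cftr and Cldn4 were at 0. Of the intestinal markers, Cdh17 was listed at 0 in all livers and at 0 to 26.1 in tumors and entered the test through its tumor values, Fabp2 (0.79, adjusted p = 0.277) and Lgals4 (-0.71, adjusted p = 0.351) were not called, Cdx1 and Cdx2 were at 0, and the sum was 8.06 to 57.7 in livers and 20.6 to 103 in tumors. Of the 10 hepatocyte markers, Apoa1 rose by 0.92 (SE 0.25), while Cyp2e1 fell by 2.82 (SE 0.58), Tat fell by 1.61 (SE 0.38) and Asgr1 fell by 0.84 (SE 0.20). Alb (0.57, adjusted p = 0.104) and Ttr (-0.10, adjusted p = 0.842) were not called, and the sum was 38913 to 49760 in livers and 36209 to 70829 in tumors. The part of any of these marker changes in the levels of the 8 genes was not tested.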

How the data were processed

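Livers and tumors were grouped by their labels. The 8 genes, and the lists of relatives and markers, were chosen with earlier results of these data known. Per the study's methods, poly-A RNA was read from both ends, placed on GRCm38, quantified by Salmon and given as TPM. What the authors deposited is a whole-number score, taken here for rounded TPM: of 900 unrounded values that the study gives for 50 genes, 882 equal the table after rounding. The submitters' processing notes also name edgeR, with no role. The table's 28442 genes include 12874 at 0 everywhere, 8 of its lines held an extra separator, and 2 tumor columns were matched by tumor number and tag, not by mouse number.

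Values were divided by trimmed mean of M values factors (30% of M, 5% of A, no weights). Genes with at least 1 in at least 6 samples were fitted as log2(value + 1) in limma 3.58.1 (R 4.3.3) using a variance trend and Benjamini-Hochberg adjustment at 0.05. Fold changes on that scale understate the change of low genes. Across tumors, all genes were regressed on each of the 8, and the genes tested had at least 1 in at least 6 tumors. Pearson and Spearman correlations had 100000 two-sided permutations (numpy 2.4.6). The TPM do not keep read depth, so no counting error is given. Livers and tumors came from different mice, apart from tumors 11 and 12, which share a mouse.

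Genes named beside the 8 are Siglece, Met, Afp and Alb, per gene the 3 with the highest r (median of at least 5, no Gm or Rik symbols), and per list at most 5 called and 2 tested and not called. Others were named after their values were seen. A few genes of the marker lists are not reported here by name. The tumor to liver fit and the regressions were tested on simulated data; the fits with a tag or block were not. Alternatives covered scaling, pseudocount, filters, ranks, tag, the averaged mouse, a replicate block and each sample left out.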

Additional observations from a re-analysis of the deposited data

Results flagged for a closer look

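Samples were checked for standing apart from their group, by the ratio of the gap to the whole range. This was found in 6 of 45 groups examined. The limit used is passed by about 1 in 20 groups of continuous, separate values. A group of zeros with 1 sample above 0 always passes it, so the count is not compared with chance. Among livers, liver 1 was the only liver above 0 for Tspan8 and for Gldn (ratio 1 for each, scaled value 0.732 against 0), and likewise for Lynx1 (ratio 1, 0.732 against 0) and Prom1 (ratio 1, 2.20 against 0). Asgr1 was highest in liver 5 (ratio 0.686, 407 against 257 in the next liver). Among E20 tumors, Tff3 was highest in tumor 12 (ratio 0.837, 859 against 241 in the next). A ratio of 1 here stands for a TPM of 1 or 3 among zeros.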

How the results depend on the processing

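The direction of the tumor to liver differences is fixed by the choice of genes. With a pseudocount of 0.1 they were 8.03 on the log2 scale for Tff3, 8.99 for Ly6d, 9.28 for Tspan8, 8.79 for Cpe and 6.79 for Gldn. Without scaling, 1341 genes differed between tumors and livers against 2230, with 10 relatives against 17, and 7 pairs of the 8 genes were called against 0; of these settings, leaving out tumor 2 as well brought the pairs to 0. E19 samples alone gave 1344 genes, 9 relatives and 4 markers (10 with all samples), and E20 samples alone gave 405 genes, 4 relatives and 5 markers, with fewer samples and genes tested. A minimum value of 5 gave 11 relatives out of 23 tested. Livers and tumors 1 to 6 share replicate numbers but came from different mice. Deviations of samples with the same number had r from -0.10 (number 3) to 0.42 (number 5). Number 3 is the only number whose liver and tumor carry different tags. Whether the numbers stand for a pairing apart from the tag was not tested. With the replicate block 1359 genes and 8 relatives were called, and with no replicate block, on the same 12 samples, 1212 genes and 7 relatives. Leaving out each sample gave 1660 to 3207 genes (the highest without tumor 2), 14 to 21 relatives and 8 to 12 markers. Leaving out each tumor gave 0 called pairs throughout, and 0 to 1 of the 8 genes called between tags (Cpe, without tumor 6). Of the 124 alternatives for counts, 109 equaled the main count or stayed within 1.5 times of it. The main counts of called pairs and of the 8 genes called between tags were 0. For these, staying the same only means that the count remained 0. Leaving out 1 tumor took r of Tff3 and Elapor1 from 0.62 to 0.13 (tumor 10) and that of Ly6d and Cpe from 0.54 to 0.35 (tumor 11). No scaling without tumor 2, and leaving out tumors 10 and 2, were settings chosen after seeing the data. TPM do not hold reads, which limits what values near 1 can show.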

Other observations

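Ly6k, a relative of Ly6d on the same chromosome (RefSeq, GRCm38.p6, chr15:74796874-74799968), was clearly present in 3 tumors and so was not tested. Its scaled value was 119 in tumor 3, 125 in tumor 5 and 131 in tumor 7, all with tag E19, and at most 0.732 in each of the other 15 samples. Ly6d in those tumors was 79.3, 243 and 123, inside the range of the other tumors. Ero1a, the gene nearest to Cpe, was highest in tumors 10 (20.03) and 11 (15.2), the tumors highest in Cpe. These genes, and Vil1 in tumor 10, were singled out after their values were seen.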
